A study of Mus musculus with 8 samples.

Results

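Among the 2628 TADs called in newborn lens fiber cells on chromosomes 1 to 19, 1529 were shorter than 200 kb. Of these, 931 had no TAD in the lens epithelium list with both ends within 25 kb (60.9% of the small fiber TADs). They are called unmatched TADs here, and the other 598 small fiber TADs, which had such a TAD in epithelium, are called matched TADs. The unmatched TADs were chosen by the TAD calls of fiber and epithelium themselves, so their lack of an epithelium call is the rule and not a result. The lists of the 3 cell types held 7992 TADs on these chromosomes in all, and the unmatched TADs were numbered T1 to T931 along the genome.

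Topologically associating domains (TADs) are stretches of a chromosome whose sites contact each other more often than sites outside. Many of them form when the cohesin complex extrudes a loop of chromatin until it meets the zinc finger protein CTCF bound at a pair of convergent sites, and such loops appear as focal contacts between the ends of a TAD. Lens fiber cells arise from the epithelium that covers the front of the lens, leave the cell cycle, accumulate crystallins and later lose their nuclei.

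Hi-C was performed on epithelium and on fiber cells microdissected from lenses of newborn CD-1 mice at postnatal day 0.5, with 30 lenses in each of 2 replicates, and on v6.5 mouse embryonic stem (ES) cells, labelled wild type, with 2000000 cells in each of 2 replicates. CTCF ChIP-seq was performed on both lens cell types from 200 lenses each, with 1 peak list per cell type and none for ES cells. The labels name no treatment or altered gene in any group. No expression was measured, so the dissected tissues could not be checked against marker genes.

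The replicates of each Hi-C map were merged before loops and TADs were called, which leaves no error between replicates and allows no test between cell types. Intervals given here are 95% intervals by Wilson for shares and by Newcombe for differences of shares, and they cover the counting of regions only. The epithelium list held 1789 TADs against 2628 in fiber, and 18.9% of its 737 small TADs (139) lacked a fiber counterpart. At the 2101 loops called with the same anchors in both lens maps, the median ratio of observed contacts in fiber to those in epithelium was 1.23. This ratio covers called loops only and is not the read depth of the maps. The part of read depth in the number of TADs called was not tested.

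Promoters that carried a CTCF peak at an end of an unmatched TAD are shown first, since they place the ends on sequence. RefSeq windows of GRCm38.p6 ran from 250 bases before to 50 bases after a gene's start, and 1068 of 31396 windows had their middle within 10 kb of such an end. A fiber CTCF peak overlapped 91 of them (8.52%), against 4.57% of all windows and 11.0% of the 836 windows at ends of matched TADs. An epithelium peak overlapped 17 of the 1068 windows (1.59%), against 1.33% of all windows and 3.71% of those at ends of matched TADs. The letters AGGNGGC, part of the sequence that CTCF recognises, were searched on both strands and stood in 29.4% of all windows, in 36.2% of those at the ends of unmatched TADs and in 37.7% of those at the ends of matched TADs. They stood in 53.8% of the 91 windows with a fiber peak, near the 54.9% of all 1435 windows with one. Only these letters were searched, so a window without a match is not shown to lack a CTCF site. Capitals mark a match in the windows printed here, each on the strand of its gene.

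Mtres1 encodes a mitochondrial RNA-binding protein and lies inside T535 on chromosome 10. Its window at chr10:43540969-43541268 on the minus strand overlapped a fiber peak of 9.07-fold and no epithelium peak. The summit of this peak, at 43540926, lay outside the window. The Mtres1 window was the only such window among the 8 unmatched TADs with the strongest CTCF peaks of fiber alone, which are described further on.
Mtres1: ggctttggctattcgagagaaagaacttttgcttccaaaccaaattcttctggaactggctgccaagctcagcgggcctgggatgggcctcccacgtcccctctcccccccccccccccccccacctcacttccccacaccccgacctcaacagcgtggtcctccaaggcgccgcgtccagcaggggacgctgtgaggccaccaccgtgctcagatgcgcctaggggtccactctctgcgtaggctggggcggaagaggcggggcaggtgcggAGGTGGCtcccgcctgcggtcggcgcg

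The next windows were chosen after their values were seen, as the 3 with the strongest fiber peak and no epithelium peak. Pdrg1 at chr2:153015334-153015633 (minus strand) carried a peak of 13.2-fold at an end of T128. Ngdn at chr14:55015204-55015503 (plus strand) carried one of 12.2-fold at an end of T754. The Ngdn peak ran from 55014897 to 55015330 with its summit at 55015186, outside the printed window. Cbl, a ubiquitin ligase gene at chr9:44233997-44234296 (minus strand), carried a peak of 11.6-fold at an end of T473.
Pdrg1: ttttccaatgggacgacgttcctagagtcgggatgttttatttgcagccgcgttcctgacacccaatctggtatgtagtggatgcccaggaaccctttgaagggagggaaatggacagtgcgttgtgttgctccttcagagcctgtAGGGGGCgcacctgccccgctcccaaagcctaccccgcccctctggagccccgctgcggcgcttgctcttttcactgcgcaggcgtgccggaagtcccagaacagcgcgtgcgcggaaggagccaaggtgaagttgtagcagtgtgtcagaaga
Ngdn: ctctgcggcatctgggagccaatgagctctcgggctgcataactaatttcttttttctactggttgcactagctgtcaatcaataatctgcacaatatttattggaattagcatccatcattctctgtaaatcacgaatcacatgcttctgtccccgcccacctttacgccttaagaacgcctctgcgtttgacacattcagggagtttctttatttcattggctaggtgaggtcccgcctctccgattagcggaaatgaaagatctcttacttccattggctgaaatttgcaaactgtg
Cbl: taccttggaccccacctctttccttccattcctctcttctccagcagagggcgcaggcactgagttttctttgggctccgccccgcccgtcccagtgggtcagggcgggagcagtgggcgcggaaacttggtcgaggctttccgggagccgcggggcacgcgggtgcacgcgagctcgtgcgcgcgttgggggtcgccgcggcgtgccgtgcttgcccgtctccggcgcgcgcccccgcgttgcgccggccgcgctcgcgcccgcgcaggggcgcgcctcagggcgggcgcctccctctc

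For comparison, and also chosen after their values were seen, the windows with the strongest fiber peaks that also overlapped an epithelium peak belonged to Gm36358 and Synm. Gm36358 at chr1:65112033-65112332 (plus strand) lay at an end of T18, beside the gamma-crystallin genes, with 16.8-fold in fiber and 10.5-fold in epithelium. Synm, which encodes the intermediate filament protein synemin, lay at chr7:67759693-67759992 (minus strand) at an end of T373, with 15.8-fold in fiber and 9.39-fold in epithelium. Of these 6 windows, those of Mtres1, Pdrg1, Gm36358 and Synm held 1 match each. Those of Ngdn and Cbl held none, and other forms of the CTCF sequence were not searched in them.
Gm36358: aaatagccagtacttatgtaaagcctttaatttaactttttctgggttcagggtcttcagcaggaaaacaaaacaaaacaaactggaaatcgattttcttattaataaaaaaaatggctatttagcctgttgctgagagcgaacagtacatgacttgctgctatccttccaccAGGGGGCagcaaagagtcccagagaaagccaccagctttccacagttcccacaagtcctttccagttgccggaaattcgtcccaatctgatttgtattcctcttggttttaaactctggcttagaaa
Synm: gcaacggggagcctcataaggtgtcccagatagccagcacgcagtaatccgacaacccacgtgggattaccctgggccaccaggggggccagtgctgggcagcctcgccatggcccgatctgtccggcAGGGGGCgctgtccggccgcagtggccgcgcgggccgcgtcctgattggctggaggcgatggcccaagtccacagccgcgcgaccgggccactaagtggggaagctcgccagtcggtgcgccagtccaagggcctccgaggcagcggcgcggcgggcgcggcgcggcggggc

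The unmatched TADs ranged from 60 to 195 kb with a median of 110 kb and quartiles of 90 and 130 kb, and together spanned 104.1 Mb. The matched TADs had a median of 100 kb, and 1 of 598 was longer than 165 kb, against 25 of 931. No small TAD of the epithelium list was longer than 165 kb. Few unmatched TADs were set apart by small distances. The offset of a TAD was taken to the epithelium TAD that fitted both its ends best, at the end that differed more. It is a mismatch of ends and not the distance to the nearest epithelium TAD, which can lie closer or overlap. In 21 of the 931 this offset was 30 kb. For 869 of the 931 it was over 100 kb, and the median offset was 340 kb. Matched TADs were closer to the limit, since 39 were kept by an offset of 25 kb and 417 of 598 lay within 10 kb. A tolerance of 10 kb gave 1112 unmatched TADs. At the size limit, 3 unmatched TADs were 195 kb long and 3 fiber TADs measured 200 to 300 kb.

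**Figure D1:**
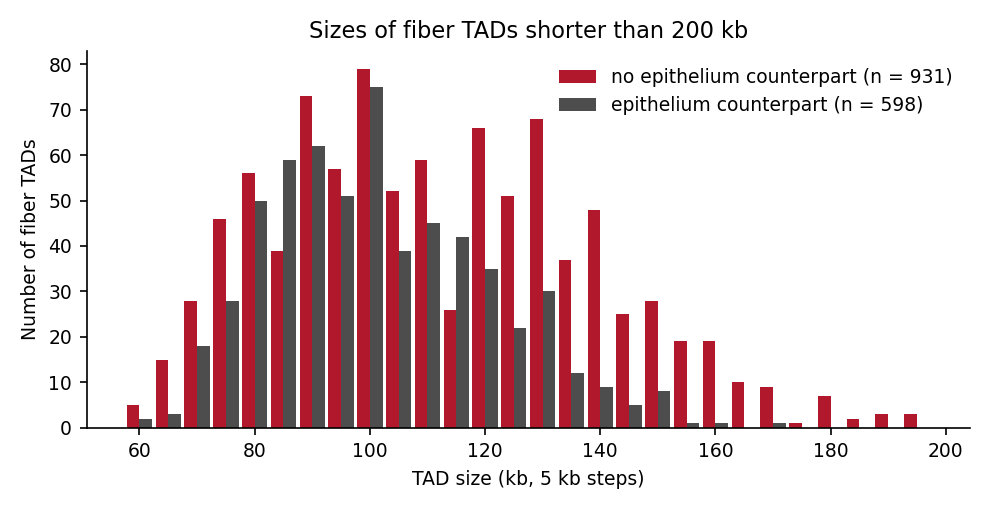
Number of small fiber TADs (y axis) by size in kb (x axis, 5 kb steps), in red the 931 without and in grey the 598 with an epithelium counterpart. The red bars reach 195 kb, while all but 1 of the matched TADs end at 165 kb or less.

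The position of the unmatched TADs against the epithelium list describes the rule further. Of the 931, 708 (76.0%) overlapped no epithelium TAD at all, against 35.5% of all fiber TADs. These include the matched TADs, all of which overlap one by the rule, so nothing is read from this difference or from the next ones. A further 174 (18.7%) lay inside 1 longer epithelium TAD, against 30.9% of all fiber TADs, and 38 (4.08%) held a smaller epithelium TAD, against 34.3%. Neither end was within 25 kb of any epithelium TAD end in 644 cases (69.2%), 1 end was in 267 (28.7%), and both ends were in 20 (2.15%), though not of the same TAD. Over all fiber TADs these shares were 33.4%, 16.6% and 50.1%. Where 1 end was shared, it bounded a longer epithelium TAD on the same side in 81 cases, a shorter one in 34 and a TAD on the other side of the end in 152.

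In 73 cases an unmatched TAD was followed by another one starting within 25 kb of its end, 3 pairs overlapped, and 3 lay inside another fiber TAD. Their number per chromosome ran from 27 on chromosome 14 to 94 on chromosome 2. As a share of the small fiber TADs it was lowest on chromosome 19, at 46.9%, and highest on chromosome 13, at 79.1%.

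In the ES cell list, 443 of the 931 unmatched TADs (47.6%, interval 44.4 to 50.8) had a TAD with both ends within 25 kb. The share over all fiber TADs was 44.9%, so that of the unmatched TADs lay near it. All fiber TADs include the unmatched, the matched and the longer ones, so this share is an average over groups that may differ. Matched TADs were in the ES cell list more often, at 66.4%, a difference of -18.8 percentage points (-23.7 to -13.8), with the unmatched share lower on 15 of 19 chromosomes. Nearly as many unmatched TADs were therefore in the fiber and ES cell lists alone (443) as in the fiber list alone (488). The ES cell list was the longest, with 3575 TADs, 2361 of them small.

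CTCF binding was measured apart from the maps that chose the TADs. A fiber CTCF peak lay within 10 kb of both ends in 371 unmatched TADs (39.8%, interval 36.8 to 43.0), of 1 end in 43.8% and of neither in 152 (16.3%). Over all fiber TADs both ends carried one in 38.8%, which again is near the share of the unmatched TADs. This too is an average over the unmatched, the matched and the longer fiber TADs. The matched TADs stood higher, at 53.3%, a difference of -13.5 points (-18.5 to -8.4) with the unmatched share lower on 15 of 19 chromosomes. Peaks at neither end were more frequent in unmatched TADs by 9.30 points (6.07 to 12.4), and 7.02% of the matched TADs had none.

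The epithelium peak list was shorter (15799 against 23132 peaks) and gave fewer marked ends. With both lists cut to the shorter length, fiber peaks lay at both ends of 30.5% of unmatched TADs and epithelium peaks of 17.1%. An epithelium CTCF peak lay at both ends of 159 unmatched TADs (17.1%), against 18.9% of all fiber TADs and 27.8% of matched TADs, a difference of -10.7 points (-15.0 to -6.4). At neither end was there one in 343 (36.8%), against 25.1% of matched TADs. The difference was thus of one direction in both CTCF lists.

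Peaks listed in fiber alone at both ends were not more frequent in unmatched TADs. They were found in 59 of 931 (6.34%) and in 7.02% of the matched TADs, a difference of -0.69 points (-3.4 to 1.8). End by end, 705 of the 1862 ends (37.9%) carried a peak of both lists, 445 (23.9%) of the fiber list alone, 42 (2.26%) of the epithelium list alone and 670 (36.0%) of neither. At ends of matched TADs the share with fiber peaks alone was 24.0%, while the share with both lists was 49.2% and with neither 24.7%. The ends of the 2 groups therefore differed in how often both lens lists, or neither, marked them.

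Ends with peaks of both lists had a median fold enrichment of 8.71 in fiber and 6.46 in epithelium, and the fiber value was the higher at 593 of 705. The value of an end is that of its strongest peak within 10 kb. Over all single peaks the medians were 6.45 in fiber and 5.78 in epithelium, which are therefore not comparable with the values of ends. The lists were made separately, so the folds of fiber and epithelium are given side by side only. Ends marked in fiber alone had weaker peaks, with a median of 6.37-fold. No lens CTCF peak of either list was found at either end of 135 unmatched TADs (14.5%), against 6.69% of matched ones.

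**Figure D2:**
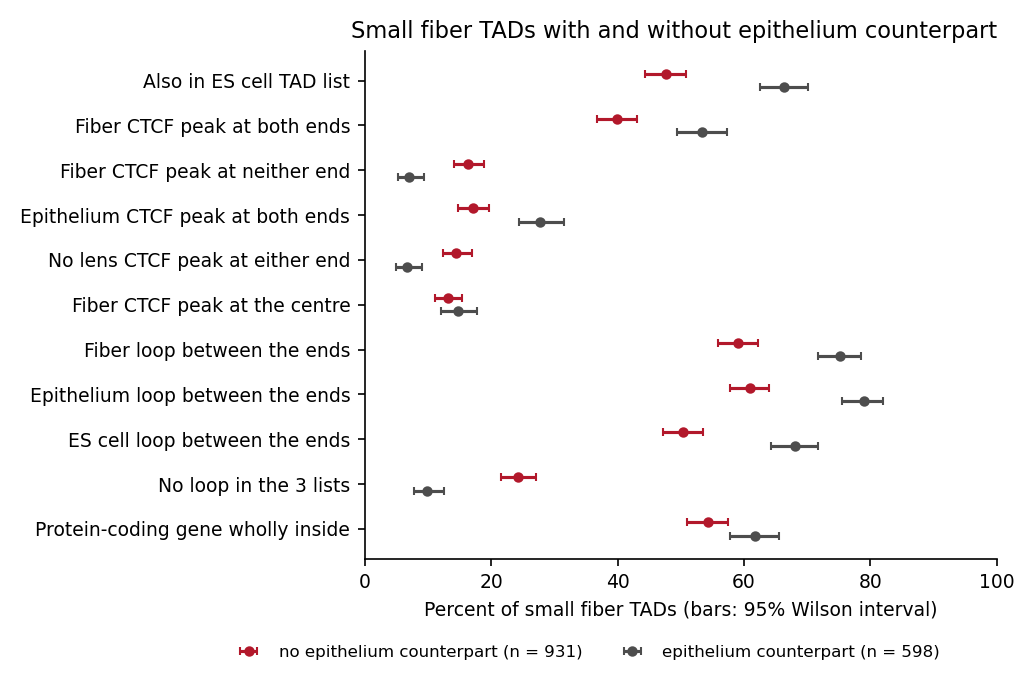
Percent of small fiber TADs (x axis) with each feature (y axis), in red the unmatched and in grey the matched TADs, with bars for the 95% Wilson interval. The red points lie left of the grey ones for peaks and loops at both ends, right of them where no peak or loop was listed, and beside them for peaks at the centre.

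The peaks were gathered at the ends. In the fiber list, 0.241 summits per end fell in the 5 kb just outside the ends of unmatched TADs and 0.235 in the 5 kb just inside. The number then fell faster inwards than outwards, to 0.0494 at 20 to 25 kb inside against 0.127 at 20 to 25 kb outside. Epithelium peaks had the same shape at a lower level, with 0.140 and 0.131 summits beside the end. A fiber peak lay within 10 kb of the centre in 13.1% of unmatched and 14.7% of matched TADs, a difference of -1.61 points (-5.3 to 1.9).

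**Figure D3:**
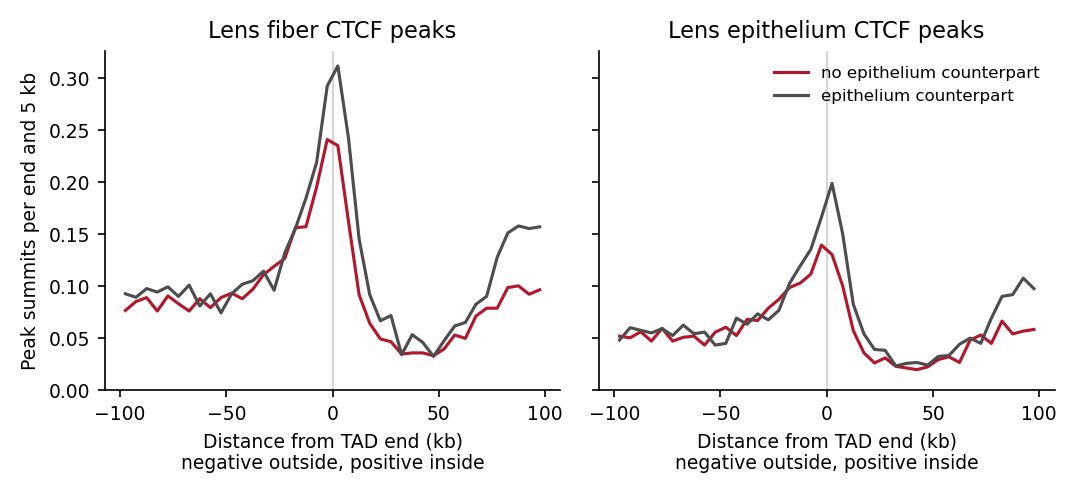
CTCF peak summits per TAD end in 5 kb bins (y axis) by distance from the end in kb (x axis, negative outside the TAD), for the fiber (left) and the epithelium peak list (right). Both lists peak at the ends of unmatched TADs (red, 0.241 in fiber and 0.140 in epithelium), at a lower level than at matched TADs (grey).

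Loops come from the same maps as the TADs and are given as a description. A loop was assigned to a TAD where the middles of both anchors lay within 25 kb of its ends. The fiber list held such a loop for 550 unmatched TADs (59.1%), and the epithelium list held one for 567 (60.9%, interval 57.7 to 64.0), although none of these TADs had an epithelium counterpart. Over all fiber TADs these shares were 58.9% and 61.4%. The matched TADs reached 75.3% in fiber and 78.9% in epithelium. In epithelium the difference was -18.0 points (-22.4 to -13.4), with the unmatched share lower on 17 of 19 chromosomes. The epithelium map also set which TADs were matched, so nothing is read from this difference. In ES cells a loop joined the ends of 469 unmatched TADs (50.4%), against 50.5% of all fiber TADs and 68.1% of matched ones.

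Both lens loop lists joined the ends of 471 unmatched TADs, and all 3 lists those of 339 (36.4%). A loop stood in fiber but not epithelium at 79, and in epithelium but not fiber at 96. No loop of the 3 lists was found at 225 (24.2%). The share was 9.87% in matched TADs, and nothing is read from this difference either. Loops in fiber alone among the lens lists stood at 8.49% of unmatched and 7.36% of matched TADs, a difference of 1.13 points (-1.8 to 3.8). The same lens maps set which TADs were matched, so nothing is read from these shares.

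The strength of the loops was compared where both lens lists gave the same anchors, which was so at 130 unmatched TADs. The median of observed contacts was 61.5 in fiber and 50 in epithelium. Observed over expected contacts, where the expected value is that of the surroundings of the loop, had a median of 3.05 in fiber and 3.34 in epithelium. The median ratio of fiber to epithelium was 0.906, and fiber was the higher at 32 of 130 loops (24.6%). At 115 loops of matched TADs the ratio was 0.918, and over all 2101 loops with the same anchors it was 0.935, with fiber higher in 28.9%. For the 130 loops, the median ratio of fiber to epithelium was 1.23 for observed contacts and 1.33 for expected contacts. These 130 loops were therefore not stronger in fiber by observed over expected contacts, and stood near the 2101. Loops called in a single lens map were left out in advance, so nothing is read for the loops of unmatched TADs as a whole.

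**Figure D4:**
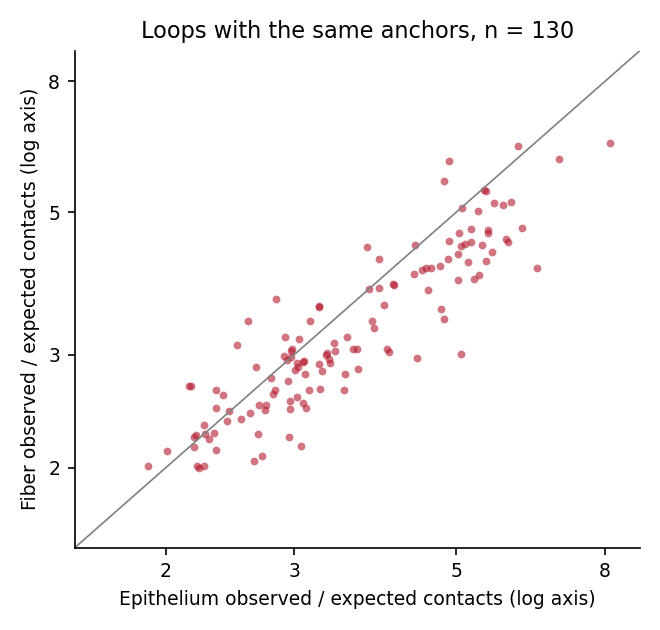
Observed over expected contacts in fiber (y axis) and epithelium (x axis), both log axes, for the 130 loops between ends of unmatched TADs that had the same anchors in both lists. Fiber is above the grey line of equal values in 32 of 130.

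Unmatched TADs differed among themselves by whether ES cells and epithelium joined their ends. Of the 443 in the ES cell TAD list, 46.3% had a fiber CTCF peak at both ends, against 34.0% of the 488 that were not, a difference of 12.3 points (6.0 to 18.4) with the same sign on 15 of 19 chromosomes. An epithelium loop joined the ends of 69.1% and 53.5%, and an ES cell loop those of 68.2% and 34.2%. ES cell loops and TADs were called on the same map, so nothing is read from the ES cell loop shares. Of the 567 with an epithelium loop, 47.1% had a fiber CTCF peak at both ends, against 28.6% of the 364 without, a difference of 18.5 points (12.2 to 24.5), higher on 19 of 19 chromosomes. The 135 without any lens CTCF peak still had a fiber loop in 50 cases (37.0%) and an epithelium loop in 55 (40.7%).

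The unmatched TADs wholly held 1006 protein-coding genes of the RefSeq table, or 9.66 per Mb against 11.7 per Mb in matched TADs. At least 1 such gene lay wholly inside 505 (54.2%), against 61.7%, a difference of -7.46 points (-12.4 to -2.4). A protein-coding gene ran across an end of 756 (81.2%), 79 lay wholly within 1 gene, and 45 touched none. A gene wholly inside was found in 60.3% of those in the ES cell list and in 48.8% of those not in it, and in 37.0% of the 135 without a lens CTCF peak.

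Lists of genes known from lens biology were set against the unmatched TADs. Of all 20665 protein-coding genes, 14.3% were touched by one or lay within 25 kb of an end. By the same measure it was 4 of 16 crystallin genes, 7 of 27 genes of the fiber membrane and cytoskeleton, 2 of 34 lens transcription factors, 7 of 34 growth factor and Notch signalling genes, 4 of 24 genes of cell cycle exit and organelle loss, 4 of 21 CTCF and cohesin genes, 0 of 21 pluripotency genes and 0 of 7 cataract genes named in the study. These counts rest on few genes, several of which are neighbours.

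The 28 unmatched TADs behind these genes were a mixed set. A fiber CTCF peak lay at both ends of 9, at 1 end of 14 and at neither end of 5, and epithelium peaks at both ends of 4, at 1 of 11 and at neither of 13. The ES cell list held 18 of them, a fiber loop joined the ends of 17, an epithelium loop those of 19 and an ES cell loop those of 15. No loop of any list was at 6 of them.

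**Figure D5:**
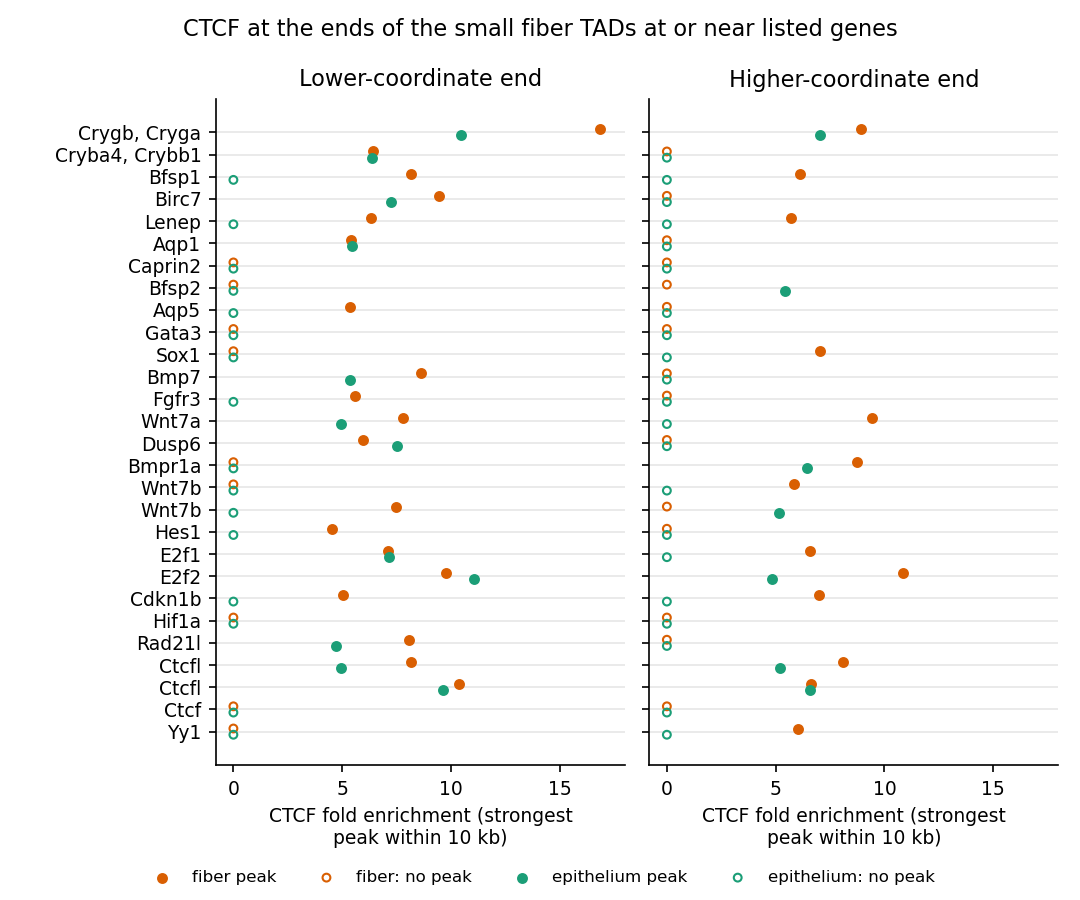
Fold enrichment of the strongest CTCF peak within 10 kb (x axis) at the lower-coordinate (left) and higher-coordinate end (right) of the 28 unmatched TADs at or near listed genes (y axis, 1 row per TAD). Filled points are peaks of fiber (orange) or epithelium (green) and open points at 0 mark no peak, which 5 rows show for fiber at both ends.

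Crystallins are the refractive proteins of the lens. Cryba4 and Crybb1 lay wholly inside T269 (chr5:112235001-112325000), which had no ES cell counterpart. Its offset to the best-fitting epithelium TAD was 520 kb. One end carried a CTCF peak of 6.40-fold in fiber and 6.39-fold in epithelium, and the other had none. Loops joined its ends in fiber (2.48 observed over expected) and in epithelium (2.07), and none did in ES cells. With anchors of 10 kb in fiber and 25 kb in epithelium, the values are not comparable.

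T18 (chr1:65105001-65180000) began 1.6 kb from Cryga and 22.7 kb from Crygb, with both genes outside it. Its first end had the strongest CTCF peak among the 28, at 16.8-fold in fiber and 10.5-fold in epithelium, and its second end had 8.90-fold and 7.03-fold. The same ends were joined by loops in fiber (2.32 observed over expected), epithelium (3.95) and ES cells (2.76), so peaks and loops were listed in epithelium without a TAD. The fiber loop had 10 kb anchors and the other two had 5 kb anchors, so these values are not comparable.

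Bfsp1 and Bfsp2 encode the beaded filament proteins filensin and phakinin, which assemble in fiber cells. Bfsp1 ran across an end of T119 (chr2:143875001-143985000), whose ends carried fiber peaks of 8.15-fold and 6.14-fold and no epithelium peak. Loops joined them in fiber (2.47) and epithelium (2.96), and T119 lay inside a longer epithelium TAD. Bfsp2 ran across an end of T514 (chr9:103355001-103445000), which had no fiber peak and 1 epithelium peak of 5.42-fold, with loops in fiber (2.60) and epithelium (2.40). Neither TAD was in the ES cell list.

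Among the other fiber genes, Lenep lay in T168 (chr3:89325001-89490000), which held 12 protein-coding genes, more than any other unmatched TAD, Shc1, Efna4 and Cks1b among them. Its ends had fiber peaks of 6.31-fold and 5.69-fold, no epithelium peak, and loops in all 3 lists. The water channel gene Aqp1 lay in T314 (chr6:55230001-55370000), with peaks of 5.41-fold in fiber and 5.46-fold in epithelium at 1 end and loops of 4.05 in fiber and 6.04 in epithelium. Caprin2, for an RNA-binding protein, lay in T349 without any lens CTCF peak at the ends or loop in any list. Aqp5 and Birc7 lay outside T804 and T151, at 11.0 and 23.6 kb.

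Of the 34 lens transcription factors, Gata3 and Sox1 were near an unmatched TAD and none was touched by one. Gata3 lay 17.0 kb outside T60, whose ends had no CTCF peak and loops in fiber (2.60, 10 kb anchors) and epithelium (4.76, 5 kb anchors), which are not comparable. Sox1 lay 15.4 kb outside T420, with a fiber peak of 7.02-fold at its far end.

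Signalling genes included ligands, receptors and targets. The ligand gene Wnt7a lay wholly inside T326 (chr6:91285001-91415000), 3.6 kb from the end. At that end a fiber peak of 9.44-fold stood without an epithelium peak, and at the other end the strongest peaks were 7.78-fold in fiber and 4.96-fold in epithelium. The loop between them had 5 kb anchors in all 3 lists and stood at 6.41 in fiber, 8.12 in epithelium and 7.48 in ES cells, against medians of 2.87, 3.26 and 3.27 over loops of all anchor widths at unmatched TADs. Wnt7b ran across an end of T793 and lay 18.2 kb from T794, which had loops of 5.87 in fiber, 8.46 in epithelium and 7.44 in ES cells.

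The ligand gene Bmp7 lay in T145 (chr2:172830001-172980000), with 8.61-fold in fiber and 5.35-fold in epithelium at 1 end and loops of 4.53, 6.30 and 5.26 in fiber, epithelium and ES cells. Of the receptors, Fgfr3 lay in T255, with 1 fiber peak of 5.57-fold and a loop in epithelium (3.25) but not in fiber. Bmpr1a ran across an end of T749, whose other end had peaks of 8.76-fold in fiber and 6.44-fold in epithelium. Hes1, a repressor that Notch signalling induces, lay 7.2 kb outside T820, which missed an epithelium TAD by 30 kb. Dusp6, for a phosphatase of ERK, lay 3.2 kb outside T562, whose other end had a peak of 5.94-fold in fiber and 7.52-fold in epithelium.

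Cdkn1b, for the cyclin-dependent kinase inhibitor p27, lay in T344 (chr6:134845001-134950000), whose ends had fiber peaks of 5.06-fold and 7.0-fold, no epithelium peak and no loop. E2f2 lay 17.3 kb from T235, with fiber peaks of 9.78-fold and 10.9-fold and epithelium peaks of 11.1-fold and 4.84-fold. E2f1 lay 24.4 kb from T132, which missed an epithelium TAD by 30 kb, and Hif1a 16.3 kb from T677, which had neither peak nor loop.

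Genes of the loop machinery were also among them. Ctcfl, the testis paralog of Ctcf, ran across an end of T147, which had peaks of 10.4-fold and 6.62-fold in fiber, 9.64-fold and 6.58-fold in epithelium, and loops of 4.76, 6.80 and 6.47 in fiber, epithelium and ES cells. Ctcf itself lay 17.1 kb outside T444, where no peak or loop was listed. Rad21l, a meiotic cohesin subunit, lay in T122, and Yy1, a zinc finger factor, in T699 with 1 fiber peak of 6.03-fold.

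The 8 unmatched TADs with the strongest fiber peaks at their weaker end and no epithelium peak at either end had values of 6.94-fold to 10.6-fold there. T821 (chr16:30975001-31065000), within the xylosyltransferase gene Xxylt1, led with 10.6-fold and 11.3-fold. T404 (chr7:126395001-126535000) followed with 10.2-fold and 11.3-fold and held Atp2a1, Atxn2l, Rabep2, Sh2b1 and Tufm among its genes. The others were T74 with Ptges and Prrx2, T568 at Mon2, T866 from Hnrnpll to Galm, T535 with Bend3 and Mtres1, T668 with Klf11 at the end of Grhl1, and T613 with Rph3al.

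A fiber loop joined the ends of 4 of these 8 and an epithelium loop those of 5. Over all unmatched TADs these shares were 59.1% and 60.9%, and 8 TADs are too few to set against them. At T821 the loop stood at 2.09 in fiber and 2.71 in epithelium, at T866 at 3.06 and 3.66. At T668 the epithelium loop had 5 kb anchors and the fiber loop 10 kb anchors, so that its 6.40 and 2.92 are not comparable. T404 had no loop in any list. The ES cell TAD list held 5 of the 8.

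The 8 with the strongest fiber peaks and epithelium peaks at both ends had 10.6-fold to 11.8-fold at the weaker end in fiber and 4.89-fold to 8.35-fold in epithelium. T470 at Ubash3b had 13.6-fold and 11.8-fold in fiber, 12.1-fold and 5.65-fold in epithelium, and loops of 3.89 in fiber and 4.39 in ES cells at 5 kb anchors and of 3.98 in epithelium at 10 kb anchors. T815 around Litaf had 14.3-fold and 11.6-fold in fiber, and its offset to the best-fitting epithelium TAD was 1990 kb. T657 in Septin9 missed an epithelium TAD by 30 kb, and its loop of 6.00 in fiber exceeded the 4.89 of epithelium at anchors of 5 kb in both. The rest were T764 with Ephx2, T428 at Mtus1 and Pdgfrl, T579 at Tns3, T257 with Hmx1 and T848 with Fkbp5. Each lens list held a loop at 7 of the 8, where the shares over all unmatched TADs were 59.1% in fiber and 60.9% in epithelium. Here too, 8 TADs are too few to set against these shares.

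The gene-richest unmatched TADs varied in their loops. Beside T168, T518 held 10 genes, among them Mst1r and Uba7, and T473 (H2ax), T553 (Ptbp1, Elane) and T609 (Pfn1, Eno3) held 9 each. No loop of any list joined the ends of T473 or T553, and 1 of these 5 was in the ES cell list. Both ends of T473 had a fiber peak, at 11.6-fold and 3.98-fold, and no epithelium peak.

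The shortest, of 60 kb, were T340 with Kcna5, T353 with Cic and Erf, T638 with Abcc3, T673 at Arhgap5 and T867 at Cdkl4, and the ES cell list held none of these. The longest were T30 at Gli2, T342 with Tspan9 and T613, of 195 kb, and, of 190 kb, T395 within Tead1, T419 from Col4a1 to Col4a2 and T491 with Insyn1 and Tbc1d21. The rule took 5 with ties by position, and T491 was added after its values were seen. Col4a1 and Col4a2 encode collagens of basement membranes such as the lens capsule. T419 had peaks of 6.50-fold and 6.82-fold in fiber and 7.44-fold and 5.90-fold in epithelium, without a loop.

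By observed contacts the fiber loops at T674 (Psma6 and Nfkbia, 335 contacts), T317 (Hk2, 320), T903 (Lrp5, 312), T460 (Sipa1l2, 310) and T368 (Nav2, 309) led. All 5 had 25 kb anchors, which gather more contacts than narrow ones, and their observed over expected values were 2.12 to 3.04. At T460 the epithelium loop had 25 kb anchors too, with 222 contacts and 2.01 over expected.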

How the data were processed

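The deposited lists were used as given, on mm10, the build named in the submitters' processing notes. These notes also name BWA, Juicer and MACS2. The authors merged the replicates of each Hi-C map, and called loops with HiCCUPS (juicer_tools 2.13.06 per the file headers) and TADs with Arrowhead. Each deposited loop has an observed count of raw contacts, an expected count from its surroundings, and an FDR, which is a q-value. For each CTCF peak the authors' run of MACS2 gave a score, a fold enrichment as a ratio to background, and the −log10 of its p-value and q-value.

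TAD ends were compared within 25 kb, peaks within 10 kb of an end and loop anchors within 25 kb, with Python 3.11.15, numpy 2.4.6, pandas 2.3.3, scipy 1.17.1 and matplotlib 3.10.9. The steps that match TADs within a tolerance, find TADs inside others, find peaks at ends and find loops were tested on simulated regions. The Newcombe interval was tested on simulated counts, and the other steps were not tested in this way. Genes and promoter windows came from RefSeq GRCm38.p6, the same build. TADs named in the text were all those at listed genes, the 8 with the strongest fiber CTCF at the weaker end without and with epithelium peaks, the 5 with the most genes, the 5 shortest and longest, and the 5 with most loop contacts. The members and lists were chosen with earlier results of these data known. Alternatives varied the tolerances, windows, size limit and peak lists. Read depth was not used here, and compartments, expression and sequence under peaks outside promoters were not analysed here.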

Additional observations from a re-analysis of the deposited data

How the results depend on the processing

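The 8 results were recomputed under 13 other settings, 58 values in all, of which 38 stayed within the interval or within 1.5 times the main count and 20 moved. The difference in fiber CTCF at both ends, unmatched minus matched, was the only result that could change sign, and it stayed negative under its 9 settings, at -6.86 points with a 5 kb peak window and -6.47 with the stronger 50% of each peak list.

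The size limit of 100 kb left 319 unmatched TADs, with fiber loops at 53.6%, epithelium loops at 57.1% and 13.8% inside 1 epithelium TAD. Peak windows of 5 and 25 kb gave fiber peaks at both ends of 19.2% and 70.1%, and epithelium peaks of 7.30% and 38.7%. The stronger 50% of each list gave 22.1% and 6.02%, and lists of equal length gave 30.5% in fiber. Loop tolerances of 10 and 50 kb gave 29.6% and 68.5% in fiber, and 30.7% and 71.6% in epithelium. The share in the ES cell list was 51.0% with an epithelium tolerance of 10 kb, and 25.8% and 61.2% with ES cell tolerances of 10 and 50 kb. The levels of these shares therefore depend on the window.

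No paired analysis was possible because the replicates were merged in the deposited lists, and no replicate was left out for the same reason. The lists give calls and not maps, so a TAD missing from the epithelium list is a missing call.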

Other observations

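Small TADs of ES cells had a fiber counterpart more often than an epithelium one, 834 against 417 of 2361. The fiber list also holds more TADs, and the part of list length in this was not tested.

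The unmatched TADs held 93 miRNA genes and 822 long non-coding RNA genes, and a miRNA gene lay inside 8.59% of them, against 9.53% of the matched TADs, a difference of -0.94 points (-4.0 to 1.9).

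The 285 unmatched TADs without a loop in either lens list had an ES cell loop in 60 cases (21.1%), a fiber CTCF peak at both ends in 26.0% and at neither end in 25.3%. They lay inside 1 epithelium TAD in 17.2% of cases, close to the share of all unmatched TADs.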
